A study of Mus musculus with 12 samples.

Results

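The neurotrophin and GDNF receptor system was examined gene by gene in mice lacking exon 7 of Auts2, a gene that encodes a nuclear regulator of neurodevelopment. Of 55487 gene identifiers counted, 8 were chosen by symbol: the neurotrophin ligands Bdnf and Ntf3, the neurotrophin receptors Ntrk2, Ntrk3 and Ngfr, and the GDNF family receptor Ret with its co-receptors Gfra1 and Gfra2. All 8 matched an Ensembl gene and passed the filter on low counts in each comparison. RNA sequencing had been run on 12 individual male mice in 4 groups of 3, each animal giving 1 library. In the first context, forebrain at postnatal day 0 (P0), the knockouts were Cmv-cre, Auts2-ex7-/- and the controls were littermates labelled as BL6 wild type. In the second, hippocampus at postnatal day 14 (P14), the knockouts were Nes-cre, Auts2-ex7-/- and the controls were littermates heterozygous for the floxed exon (auts2-ex7-fl-het). The floxed allele was Auts2tm1.1Dare in each case. Cmv-cre recombines in cells throughout the body (line B6.C-Tg(CMV-cre)1Cgn/J). Nes-cre is used to recombine in neural progenitors and their descendants (line B6.Cg-Tg(Nes-cre)1Kln/J). Whether cells of other lineages kept exon 7 at P14 was not tested. The labels do not say whether the P14 controls carry Cre. The contexts thus differ in tissue, age, Cre line and the genotype of the controls at once, and what each adds to a difference between P0 and P14 cannot be told apart.

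Neurotrophins are secreted growth factors that act on neurons through Trk receptor tyrosine kinases and through the p75 receptor. BDNF binds TrkB, the product of Ntrk2, and NT-3, the product of Ntf3, prefers TrkC, the product of Ntrk3. The p75 receptor, encoded by Ngfr, binds all mature neurotrophins and, with sortilin family partners, their precursors. GDNF and its relatives signal differently: a GPI-anchored GFRα co-receptor binds the ligand and presents it to the tyrosine kinase RET, with GFRα1 preferring GDNF and GFRα2 preferring neurturin. In the hippocampus Bdnf is an activity-regulated transcript of excitatory neurons, and Ntf3 is best known there from granule cells of the dentate gyrus.

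Total counts ranged from 11247150 to 16796797 in the P0 libraries and from 16830720 to 23340621 in the P14 libraries. Levels are given as CPM, read counts divided by library sizes that were scaled with the trimmed mean of M values (TMM). The forebrain transcription factor Lhx2 averaged 87.4 to 118 CPM in the 4 groups and the hippocampal and dentate marker Prox1 averaged 191 CPM in the P14 controls. The 7 hindbrain and spinal cord Hox genes listed summed to 0 CPM in P0 controls, at most 0.166 in P0 knockouts, at most 0.0558 in P14 controls and 0.149 to 0.954 in P14 knockouts. Auts2 itself gave 151 ± 12.8 CPM in P0 controls and 169 ± 11.01 in P0 knockouts, and 102 ± 7.28 in P14 controls and 81.9 ± 9.65 in P14 knockouts (SD, n = 3 each). Gene-level counts include exons outside the deletion, so they do not check the genotype labels. The P0 libraries carry numbers 1407 to 1410 except for the third knockout and the third control, which are numbered 1415 and 1416. What separates these number series is not given in the sources used here.

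Differences between genotypes were estimated with edgeR's quasi-likelihood test over all genes that passed the filter, and a gene was called at a Benjamini-Hochberg adjusted p under 0.05. Across all genes 0.909% of 16176 were called at P0 and 1.99% of 17208 at P14. Of the 8 genes, 1 was called at P0 (Ret) and 2 at P14 (Bdnf and Ntf3), and all 3 were lower in the knockout, a direction in which 0.717% and 0.773% of all genes were called. In the P0 forebrain the median log2 fold change of the 8 was -0.26, with 7 below 0, against -0.00034 over all genes tested. In the P14 hippocampus it was -0.17, with 5 below 0, against -0.0073 over all genes tested. With 3 libraries a group, an exact two-sided permutation test of a single gene cannot go below p = 0.1.

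**Figure D1:**
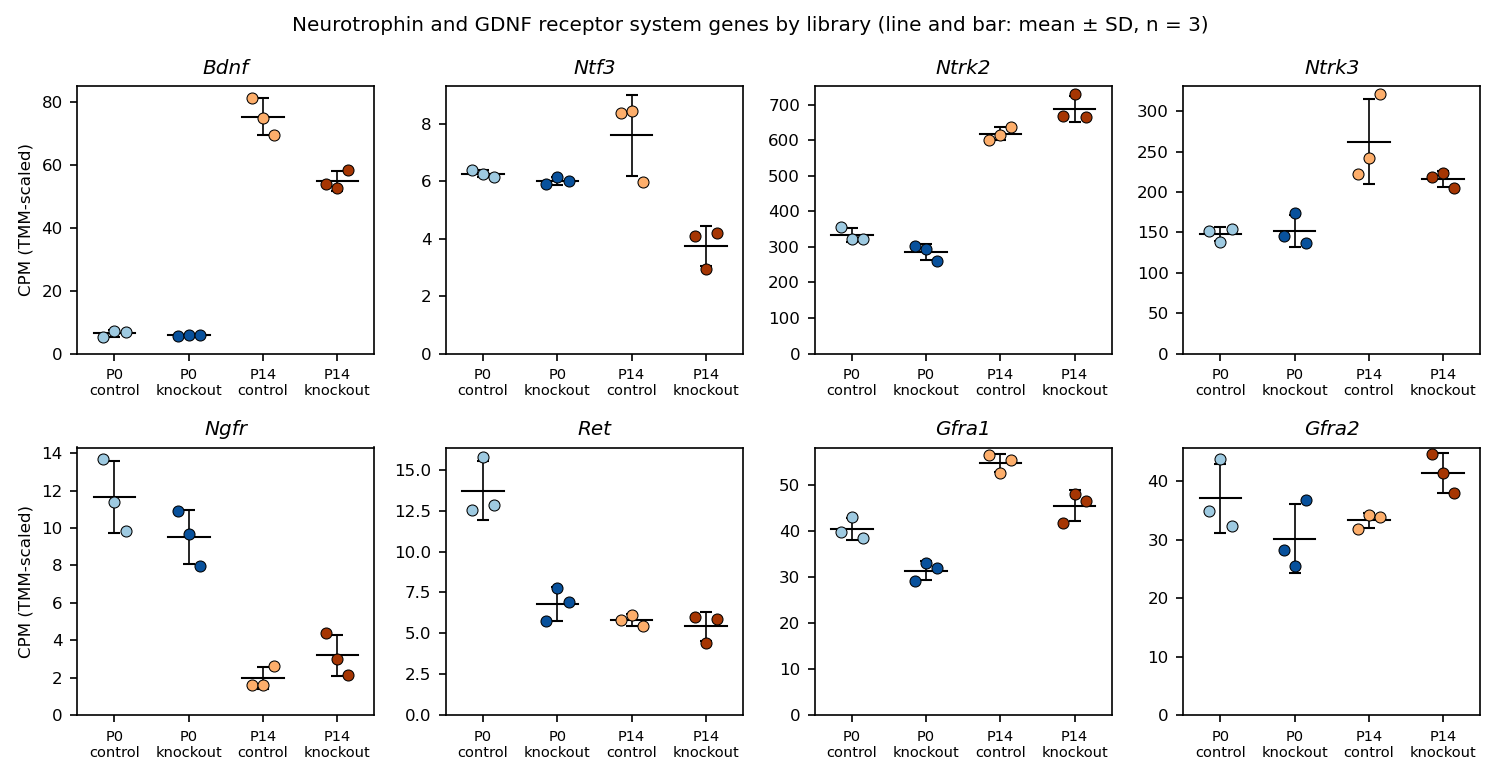
CPM (TMM-scaled, linear axes from 0) of the 8 genes in each of the 12 libraries, with points for libraries and line and bar for mean ± SD (n = 3). Bdnf lies at 5.21 to 7.21 CPM at P0 and at 52.5 to 81.2 CPM at P14, there with the knockouts below the controls, Ntf3 is lowest in the P14 knockouts, and Ret is highest in the P0 controls.

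The ligands Bdnf and Ntf3 were lower in the P14 knockout hippocampus. Bdnf (ENSMUSG00000048482, chromosome 2 from 109674700 to 109727007 on the plus strand of GRCm38) is transcribed from several start sites that are each spliced to a common coding exon. Ntf3 (ENSMUSG00000049107, chromosome 6 from 126101412 to 126166910, minus strand) has 2 start sites in the RefSeq table used here. The 250 bases before 3 of these starts are shown, since they belong to the genes called at P14. They come from RefSeq on GRCm38.p6, are written 5′ to 3′ on the gene's strand and overlap no annotated exon. The capitals mark the core of the cAMP response element, TGACG or its reverse complement CGTCA, the letters that CREB family factors recognise. The first window lies upstream of the gene at chr2:109674450-109674699 (+), the second in a Bdnf intron at chr2:109692186-109692435 (+), and the third in an Ntf3 intron at chr6:126164961-126165210 (-).
Bdnf, start 1: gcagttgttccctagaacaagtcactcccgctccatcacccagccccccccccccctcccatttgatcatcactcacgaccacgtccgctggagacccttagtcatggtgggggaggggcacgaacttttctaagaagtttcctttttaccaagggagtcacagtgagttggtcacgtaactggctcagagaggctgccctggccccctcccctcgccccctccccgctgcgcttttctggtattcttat
Bdnf, start 3: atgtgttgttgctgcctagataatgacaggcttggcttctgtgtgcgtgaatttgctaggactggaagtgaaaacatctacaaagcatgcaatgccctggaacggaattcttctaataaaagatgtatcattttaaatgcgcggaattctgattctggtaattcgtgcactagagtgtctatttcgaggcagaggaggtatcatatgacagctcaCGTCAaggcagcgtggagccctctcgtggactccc
Ntf3, start 2: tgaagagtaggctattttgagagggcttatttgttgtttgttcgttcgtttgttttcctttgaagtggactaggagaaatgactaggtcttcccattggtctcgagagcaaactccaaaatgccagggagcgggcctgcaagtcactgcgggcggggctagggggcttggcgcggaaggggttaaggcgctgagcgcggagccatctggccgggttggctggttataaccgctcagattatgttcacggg
The match before Bdnf start 3 begins 35 bases before that start. Of the 7 Bdnf windows 1 held the core and of the 2 Ntf3 windows none did, and 17.8% of 32851 windows of 250 bases over all genes hold it on either strand. A match is a string of letters, not a bound site. The counts sum over all starts of a gene, so they do not say which start gave the reads. Windows were also listed for Ntrk2, Ngfr and Gfra1, and none of them held the core.

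In the P14 hippocampus Bdnf stood at 81.2, 74.9 and 69.5 CPM in the controls and at 53.7, 52.5 and 58.2 CPM in the knockouts. Every knockout library lay below every control library. Controls averaged 75.2 ± 5.84 CPM and knockouts 54.8 ± 3.05 (SD, n = 3 each), so the knockouts held 72.9% of the control level. The log2 fold change was -0.45 ± 0.08 (SE; edgeR adjusted p = 0.00918). Each library gave at least 916 Bdnf reads here. In the P0 forebrain, by contrast, Bdnf was scarce, at 5.21, 7.21 and 6.70 CPM in the controls and 5.49, 5.80 and 5.99 CPM in the knockouts. These P0 groups overlapped, and the log2 fold change was -0.15 ± 0.18 (SE; edgeR adjusted p = 0.722). An antisense gene, Gm45346, shares 14.4% of the exon bases of Bdnf, and reads of the overlap are not assigned to either gene in the column used. Summing the strand columns, which count such reads, added 4.08% to Bdnf and gave -0.45 at P14 (edgeR adjusted p = 0.00985).

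Ntf3 changed by a larger factor from a much lower level. At P14 it stood at 8.38, 8.43 and 5.96 CPM in the controls and at 4.08, 2.93 and 4.20 CPM in the knockouts. The groups did not overlap, although the third control lay closer to the knockouts than the other controls did. Controls averaged 7.59 ± 1.41 CPM and knockouts 3.73 ± 0.70 (SD, n = 3 each), 49.2% of control, with log2 fold change -1.02 ± 0.20 (SE; edgeR adjusted p = 0.0161). Between 63 and 151 reads per library underlie these values. At P0 the controls had 6.39, 6.24 and 6.15 CPM and the knockouts 5.89, 6.13 and 5.99 CPM. The P0 libraries did not overlap either, but the log2 fold change was -0.064 ± 0.16 (SE; edgeR adjusted p = 0.888). Groups that do not overlap are frequent in these data, at 21.8% of tested genes at P0 and 20% at P14, against 4 and 5 of the 8 genes.

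Both P14 calls depended on which libraries were present, as did the share of all genes called. With 1 library left out in turn, the log2 fold change of Bdnf lay between -0.49 and -0.39 and it stayed called in 3 of 6 fits. The call was lost without control 2, knockout 1 or knockout 2 (edgeR adjusted p of 0.0645, 0.0780 and 0.0622). For Ntf3 the range was -1.16 to -0.86 with 2 of 6 fits called. Its call was lost without control 1, control 2, knockout 1 or knockout 2 (edgeR adjusted p from 0.0613 to 0.118). The direction was negative in every one of these 12 fits. Over all genes, 0.989%, 0.669% and 10.3% were called without control 1, 2 or 3. Without knockout 1, 2 or 3 the shares were 0.595%, 1.07% and 1.08%, against 1.99% with all 6 libraries.

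**Figure D2:**
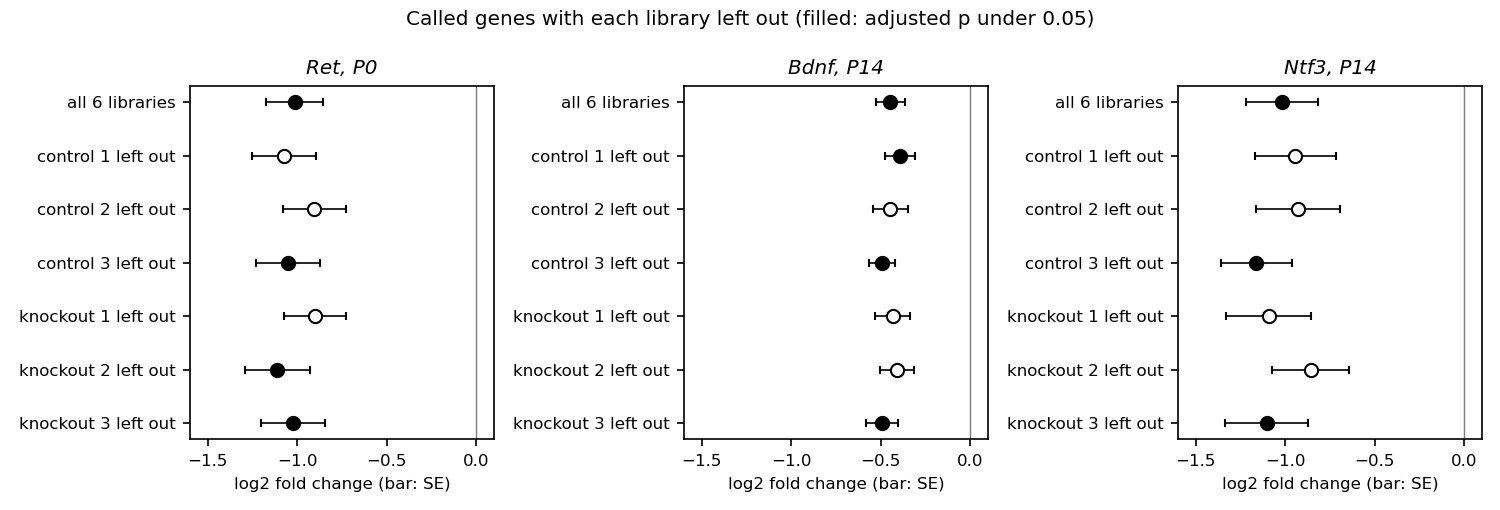
Log2 fold change (knockout over control, bar: SE) of Ret at P0 and of Bdnf and Ntf3 at P14 in the fit to all 6 libraries and with each library left out. Filled points have an edgeR adjusted p under 0.05. Every point lies below 0, and the point of the fit to all 6 libraries is filled for each gene. Of the fits with a library left out, 3 of 6 are filled for Ret, 3 of 6 for Bdnf and 2 of 6 for Ntf3.

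Markers of dentate granule cells were also lower in the P14 knockouts. Their summed level was 714 to 789 CPM in P14 controls and 454 to 507 CPM in P14 knockouts. Of the 10 markers on the list 9 were called lower, where 0.773% of all genes were. All 10 had a log2 fold change below 0, with a median of -0.69. With 1 library left out, between 5 and 10 of these markers were called, in fits that called 0.595% to 10.3% of all genes. Prox1, which specifies granule cell identity, was at 172, 199.7 and 202 CPM in controls and 116, 97.7 and 124 CPM in knockouts (log2 fold change -0.76, edgeR adjusted p = 0.00111). CA pyramidal markers summed to 1193 to 1313 CPM in controls and 1232 to 1299 in knockouts, but single genes moved both ways: 1 of 11 was called higher (Mpped1, 0.48) and 2 lower (Iyd, -1.22, and Bok, -0.44), with 8 of 11 below 0. Of 19 cell type lists, 5 had lower sums in P14 knockouts without overlap (hippocampus, dentate granule, thalamus and hypothalamus, endothelial, and mural, fibroblast and meningeal) and 2 had higher sums (striatal projection, and hindbrain and spinal cord). The hindbrain and spinal cord sum was only 0.149 to 0.954 CPM in those knockouts. Of all single genes tested, 20% did not overlap at P14. The lists share some genes, such as Prox1 on the hippocampus and dentate granule lists. At P0 the dentate granule sum was lower without overlap too (260.2 to 289 CPM in controls and 223 to 242 in knockouts). The most abundant gene of that list was Rfx3 at P0 and Prox1 at P14, and 1 of 8 tested was called at P0. Neither ligand was called at P0. Whether the P0 sum reflects granule cells was not tested. The part of all these markers in the lower ligand levels at P14 was not tested. In bulk tissue, fewer cells of a type and less RNA per cell cannot be told apart.

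**Figure D3:**
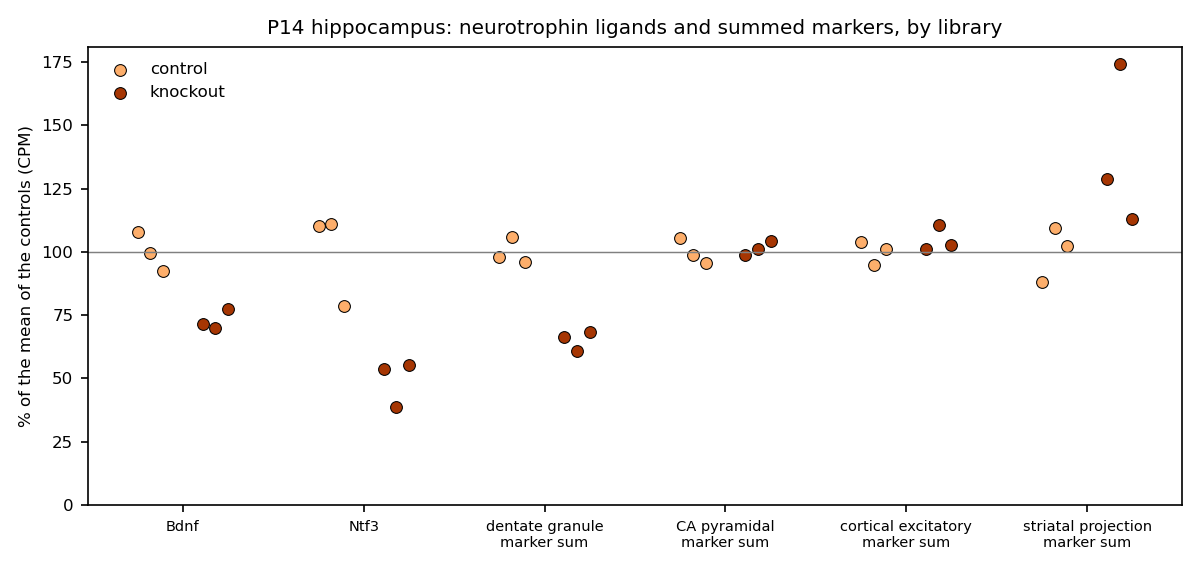
P14 hippocampus libraries as a percentage of the control mean (linear axis from 0) for Bdnf and Ntf3 and for summed CPM of 4 marker lists, with 1 point per library (n = 3 per genotype). Knockout points of both ligands and of the dentate granule sum lie below all their control points, and those of the CA pyramidal sum lie among them.

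The Trk receptors gave no call at either age with all 6 libraries. Ntrk2 (ENSMUSG00000055254, chromosome 13 from 58806569 to 59133970, plus strand), the TrkB gene, was the most abundant of the 8 per kilobase of exon in every group. Its P0 controls had 358, 321 and 324 CPM and its P0 knockouts 301, 295 and 260.4 CPM. The groups did not overlap, with a log2 fold change of -0.23 ± 0.08 (SE; edgeR adjusted p = 0.167). Within libraries 1407 to 1410 it was -0.18 and was called (edgeR adjusted p = 0.0439), as were 12.9% of all genes. At P14 the controls had 601, 616 and 639 CPM and the knockouts 669, 729.9 and 667 CPM. The knockouts were all above the controls there, with a log2 fold change of 0.17 ± 0.07 (SE; edgeR adjusted p = 0.266). Ntrk2 is transcribed in astrocytes as well as neurons, in astrocytes mostly as a receptor form without the kinase, and gene counts do not separate the forms. Astrocyte markers summed to 735 to 937 CPM in P0 controls and to 691 to 704 CPM in P0 knockouts, with 1 of 10 called, and at P14 to 7089 to 7333 CPM in controls and 6850 to 7142 CPM in knockouts, with 0 of 10 called and 7 of 10 below 0. The shares called over all genes were 0.909% at P0 and 1.99% at P14. The astrocyte sum was thus lower in all knockouts at P0, as Ntrk2 was, and overlapped at P14, where Ntrk2 was higher. The part of astrocytes in the Ntrk2 values was not tested.

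Ntrk3 (ENSMUSG00000059146, chromosome 7 from 78175959 to 78738012, minus strand), the TrkC gene, had overlapping genotypes in both tissues. The P0 controls had 152, 138 and 154 CPM and the P0 knockouts 146, 174 and 136 CPM (log2 fold change 0.033, SE 0.09, edgeR adjusted p = 0.895). At P14 the third control stood apart at 322 CPM, against 222 and 242 CPM in the others and 219, 224 and 205 CPM in the knockouts. The log2 fold change was -0.27 ± 0.13 (SE; edgeR adjusted p = 0.352), and without that control it was -0.089. Without a filter on low counts it was called at P14, at -0.26 (edgeR adjusted p = 0.0417), as were 2.48% of all genes.

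Ngfr (ENSMUSG00000000120, chromosome 11 from 95568818 to 95587735, minus strand), encoding the p75 receptor, was low at P14. It gave 13.7, 11.4 and 9.86 CPM in P0 controls and 10.9, 9.70 and 7.99 CPM in P0 knockouts, which overlapped (log2 fold change -0.29, SE 0.17, edgeR adjusted p = 0.409). At P14 the controls had 1.62, 1.62 and 2.64 CPM and the knockouts 4.38, 3.02 and 2.16 CPM, from 28 to 88 reads a library. The groups overlapped through the third control and the third knockout, and the log2 fold change of 0.72 had an SE of 0.30 (edgeR adjusted p = 0.260). Without the third control it was 1.00 and was called (edgeR adjusted p = 0.0449), as were 10.3% of all genes. Without the first knockout it was 0.42 (edgeR adjusted p = 0.736). The third control also had the highest choroid plexus marker sum of the P14 libraries, 2572 CPM, against 158 and 984 CPM in the other controls and 1384 to 2053 CPM in the knockouts.

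Ret (ENSMUSG00000030110, chromosome 6 from 118151745 to 118197718, minus strand), the signalling receptor for GDNF family ligands, was the gene called at P0. It stood at 12.5, 15.8 and 12.8 CPM in the P0 controls and at 5.73, 7.79 and 6.90 CPM in the P0 knockouts. All knockout libraries lay far below all controls, from at least 149 reads in each control and 72 to 114 in each knockout. Controls averaged 13.7 ± 1.80 CPM and knockouts 6.81 ± 1.04 (SD, n = 3 each), 49.6% of control, with a log2 fold change of -1.01 ± 0.16 (SE; edgeR adjusted p = 0.0197). Within libraries 1407 to 1410 alone the log2 fold change was -1.07 (edgeR adjusted p = 2.55e-04), in a fit that called 12.9% of all genes. With 1 library left out it lay between -1.11 and -0.90 and was called in 3 of 6 fits. The call was lost without control 1, control 2 or knockout 1 (edgeR adjusted p of 0.129, 0.121 and 0.101). Nearly all calls were lost there: those fits called 0.0121%, 0.00605% and 0.00604% of all genes, against 0.909% with all 6 libraries. In the P14 hippocampus Ret stood at 5.83, 6.14 and 5.43 CPM in controls and 6.02, 4.41 and 5.85 CPM in knockouts. These groups overlapped, and the log2 fold change was -0.089 ± 0.18 (SE; edgeR adjusted p = 0.874).

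Ret is known from dopamine neurons, so genes of dopamine and other monoamines were read beside it, chosen after the Ret values were seen. Th, the rate-limiting enzyme of dopamine synthesis, had 1.93, 2.51 and 2.60 CPM in P0 controls and 1.11, 0.829 and 2.06 CPM in P0 knockouts (log2 fold change -0.79, edgeR adjusted p = 0.276). Slc18a2, the vesicular monoamine transporter, had 20.5, 16.0 and 17.9 CPM against 14.3, 12.4 and 15.9 CPM (log2 fold change -0.35, edgeR adjusted p = 0.218). Ddc, the enzyme after Th, had 6.47, 8.26 and 5.21 CPM against 3.42, 6.96 and 4.36 CPM (-0.44, edgeR adjusted p = 0.432). Slc6a3, the dopamine transporter, went the other way in 1 library: 1.26, 1.05 and 1.11 CPM in controls and 0.318, 0.580 and 3.75 CPM in knockouts (0.53, edgeR adjusted p = 0.799). Dbh, the noradrenaline enzyme, was at or under 0.121 CPM. Only Slc18a2 had groups that did not overlap among these 5, and it lay above Th and Slc6a3 in every P0 library. Which cells its reads came from was not tested. Of the cholinergic neuron markers, which summed to 59.2 to 67.6 CPM in P0 controls and 56.1 to 59.8 CPM in P0 knockouts, 0 of 6 tested were called. Oligodendrocyte precursor markers summed to 249 to 293 and 219 to 225 CPM, with 0 of 8 called. Of the 19 cell type lists, 6 had lower sums in P0 knockouts without overlap: these precursors, oligodendrocytes, astrocytes, and the striatal projection (341 to 390 CPM in controls and 310 to 323 in knockouts, 1 of 9 called), subplate (127 to 146 and 101 to 115, 0 of 6) and dentate granule lists (260.2 to 289 and 223 to 242, 1 of 8). The forebrain, CA pyramidal and choroid plexus sums were higher without overlap. Of all single genes tested at P0, 21.8% did not overlap, 0.909% were called and 0.717% were called lower. The part of these cells in the lower Ret level was not tested.

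The co-receptors were lower or higher by smaller factors, without a call. Gfra1 (ENSMUSG00000025089, chromosome 19 from 58235604 to 58455909, minus strand) had 39.8, 43.1 and 38.5 CPM in P0 controls and 29.2, 33.1 and 31.9 CPM in P0 knockouts. The groups did not overlap and the log2 fold change was -0.37 ± 0.09 (SE; edgeR adjusted p = 0.0749). It was called within libraries 1407 to 1410 (-0.41, edgeR adjusted p = 0.00508), as were 12.9% of all genes. It was also called with the number series as a term (-0.37, 0.0439), in 1 fit on all 12 libraries (-0.36, 0.0458), without a filter on low counts (-0.36, 0.0364) and without the third knockout (-0.38, 0.0290). Those settings called 2.87%, 1.56%, 1.99% and 4.69% of all genes, in that order. At P14 it had 56.4, 52.7 and 55.4 CPM in controls and 41.7, 48.1 and 46.5 CPM in knockouts, again without overlap (log2 fold change -0.26, SE 0.08, edgeR adjusted p = 0.120). Gfra1 shares 7.60% of its exon bases with the antisense gene Gm16277, and summing the strand columns added 15.4% to its counts and gave -0.31 at P0 (edgeR adjusted p = 0.131).

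Gfra2 (ENSMUSG00000022103, chromosome 14 from 70890120 to 70979838, plus strand) differed in sign between the contexts. The P0 controls had 34.95, 43.7 and 32.4 CPM and the P0 knockouts 28.2, 25.4 and 36.8 CPM, so the third knockout lay among the controls. The log2 fold change was -0.29 ± 0.15 (SE; edgeR adjusted p = 0.353). Within libraries 1407 to 1410, which leave out that knockout and the third control, it was -0.55 and was called (edgeR adjusted p = 0.00138), as were 12.9% of all genes. Without the third knockout alone it was -0.46 and was called (edgeR adjusted p = 0.0413), as were 4.69% of all genes. Without the second control it was -0.16 and without the second knockout -0.18 (edgeR adjusted p of 0.756 and 0.656). Those fits called 0.00605% and 0.0906% of all genes. At P14 the controls had 31.8, 34.2 and 33.9 CPM and the knockouts 44.7, 41.4 and 38.0 CPM. Every P14 knockout was above every control, with a log2 fold change of 0.33 ± 0.09 (SE; edgeR adjusted p = 0.0739). It was called without the third P14 control (0.34, edgeR adjusted p = 0.0171) and without a filter on low counts (0.33, edgeR adjusted p = 0.0260). Those fits called 10.3% and 2.48% of all genes.

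**Figure D4:**
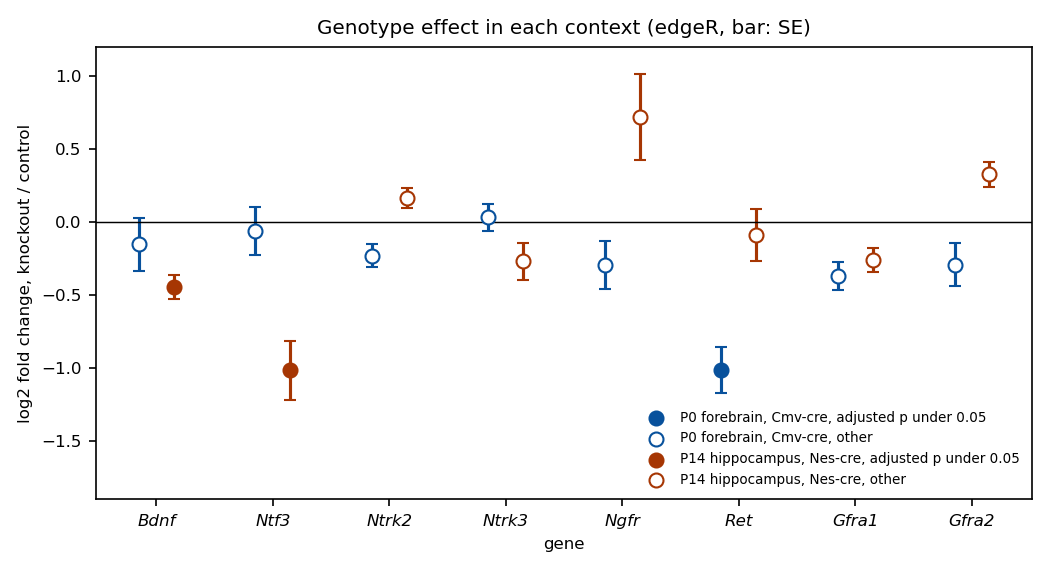
Log2 fold change of knockout over control (bar: SE) for the 8 genes in the P0 forebrain and the P14 hippocampus, with filled points at an edgeR adjusted p under 0.05. The filled points are Ret at P0 and Bdnf and Ntf3 at P14, and Ntrk2, Ntrk3, Ngfr and Gfra2 change sign between the contexts.

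The difference between the contexts was tested as the interaction term of 1 fit to all 12 libraries, where 1.79% of 18189 genes were called. None of the 8 genes was called with edgeR, and 5 had an unadjusted p under 0.05, as did 15.3% of all genes. DESeq2 called 4 (Ntf3, Ntrk2, Ret and Gfra2), against 2.92% of all genes. Ret came closest, with a P14 minus P0 difference in log2 fold change of 0.91 ± 0.24 (SE; edgeR adjusted p = 0.0544). Ntf3 differed by -0.97 ± 0.26 (SE; edgeR adjusted p = 0.0627), Ntrk2 by 0.38 (0.0819) and Gfra2 by 0.60 (0.0939). For Ngfr the difference was 1.00 (edgeR adjusted p = 0.146), for Bdnf -0.31 (0.397), for Ntrk3 -0.32 (0.374) and for Gfra1 0.094 (0.770). With 1 library left out, Ntf3, Ntrk2 and Ngfr were called without the third P14 control, Gfra2 without the third P0 control or the third P0 knockout, and Ret without the second P14 knockout. Over all genes 4.85% were called without the third P14 control. The share was 2.5% without the third P0 control, 3.16% without the third P0 knockout and 0.89% without the second P14 knockout. Thus the calls of Ret at one age and of Bdnf and Ntf3 at the other were not shown by this test to differ between the contexts.

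Between the control groups the system was arranged differently, as were most genes. The P14 minus P0 comparison of controls called 64% of 18189 genes, 32.3% higher and 31.7% lower, and of the 8 it called 4 higher and 2 lower. Bdnf averaged 6.37 ± 1.04 CPM in the P0 forebrain and 75.2 ± 5.84 CPM in the P14 hippocampus, a log2 difference of 3.55 ± 0.12 (SE; edgeR adjusted p = 4.83e-17). Ntrk2 (0.89), Ntrk3 (0.83) and Gfra1 (0.44) were also higher in the P14 controls, with edgeR adjusted p of 1.12e-09, 6.65e-06 and 1.58e-04. Ngfr was lower by 2.56 on the log2 scale, a difference of -2.56 ± 0.24 (SE; edgeR adjusted p = 6.41e-09). Ret was lower as well, at -1.24 ± 0.17 (SE; edgeR adjusted p = 1.02e-06). Ntf3 (0.28, edgeR adjusted p = 0.187) and Gfra2 (-0.15, edgeR adjusted p = 0.301) were not called. Without the third P14 control Ntf3 was called (0.43, edgeR adjusted p = 0.0473), as were 60.9% of all genes. The 8 genes thus did not move as a block: the Trk receptor genes Ntrk2 and Ntrk3 were higher and Ngfr was lower.

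Per kilobase of merged exon, the order of levels also changed. In P0 controls it ran from Ntrk2 (17.3 CPM per kb) through Gfra2 (10.5), Gfra1 (7.39), Ntrk3 (4.90), Ntf3 (3.65), Ngfr (3.38) and Ret (2.03) to Bdnf (1.03). Only the neighbours Ntf3 and Ngfr overlapped in that order. In P14 controls Ntrk2 (32.1 CPM per kb) was followed by Bdnf (12.1), Gfra1 (10.01), Gfra2 (9.40), Ntrk3 (8.69), Ntf3 (4.43), Ret (0.858) and Ngfr (0.568). Gfra1 and Gfra2 overlapped, as did Gfra2 and Ntrk3. In P14 knockouts Bdnf, at 8.82 CPM per kb, came after Gfra2 (11.7) and overlapped Gfra1 (8.30). In P0 knockouts Ret, at 1.01 CPM per kb, overlapped Bdnf (0.926), which it exceeded without overlap in the P0 controls. Merged exon length counts every annotated exon, 19.3 kb for Ntrk2 and 30.2 kb for Ntrk3, so the levels of long transcripts with rarely used exons are understated on this scale.

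The wider pathway was read from the 89 genes of 6 further lists that are reported here. At P0, 81 of them were tested, and 0 were called higher and 2 lower, where 0.717% of all genes were called lower. At P14, 81 were tested, and 5 of these rose, where 1.21% of all genes did. The adaptors and proximal signalling genes, such as Frs2 and the Shc family, had 0 of 28 called at P0 and 2 of 28 higher at P14. Those were Dok5, an adaptor that binds TrkB, TrkC and RET, at a log2 fold change of 0.51, and Lingo1, a partner of p75 in the Nogo receptor complex, at 0.34 (edgeR adjusted p of 0.0187 and 0.0206). In the list of other GDNF family ligands and receptors, 4 of 10 genes were tested in each context and 0 were called. Its most abundant genes were Sdc3, a proteoglycan that binds GDNF, and Ncam1, an alternative GDNF receptor. Sdc3 averaged 290.1 CPM in P14 controls and 382 in P14 knockouts (log2 fold change 0.41, edgeR adjusted p = 0.0713), and Ncam1 averaged 278 and 313 CPM (0.18, edgeR adjusted p = 0.224). Gdnf itself was at or under 1.16 CPM in every library and was not tested for a genotype effect within either context. In the fit to all 12 libraries it was tested. There 0 of 6 tested genes of this list were called for the interaction. Between the controls Gdnf was lower at P14 (log2 difference -1.54, edgeR adjusted p = 0.00836), called in 11 of 12 fits that left out a library.

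Sorcs1, a sortilin family receptor related to the partner of p75, rose at P14 from 9.01, 10.2 and 8.23 CPM in controls to 19.5, 19.0 and 13.6 CPM in knockouts. The groups did not overlap, with a log2 fold change of 0.94 ± 0.15 (SE; edgeR adjusted p = 0.00425). Among transcription factors known to act on Bdnf, Mef2c and Arnt2 rose at P14. Mef2c went from 145, 146 and 137 CPM to 219, 204 and 222 CPM (log2 fold change 0.60, edgeR adjusted p = 5.24e-04). Arnt2 had a log2 fold change of 0.36 (edgeR adjusted p = 0.0133). Sorcs1 and Mef2c were called in all 6 fits that left out a library, whereas Arnt2 was called in 2, Dok5 in 3 and Lingo1 in 1. Those fits called 0.595% to 10.3% of all genes. Other neuron types moved in these libraries too: 4 of 10 cortical excitatory markers were called higher, where 1.21% of all genes were. Striatal projection markers summed to 157 to 195 CPM in controls and 201 to 309.9 CPM in knockouts, with 1 of 9 called. The part of these neuron types in the higher levels of Sorcs1, Mef2c and Arnt2 was not tested.

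At P0, Cadps2 and Egr1 fell. Cadps2 encodes a factor for release from dense-core vesicles that acts on BDNF secretion, and it went from 34.9, 36.9 and 28.6 CPM in controls to 19.6, 16.2 and 22.4 CPM in knockouts (log2 fold change -0.78, SE 0.13, edgeR adjusted p = 0.0208). Egr1, an immediate early gene induced by TrkB signalling and by neuronal activity in general, went from 25.1, 19.1 and 19.9 CPM to 8.03, 11.1 and 14.2 CPM (-0.94, SE 0.18, edgeR adjusted p = 0.0390). The genotypes did not overlap for either gene. Each was called in 2 of 6 fits that left out a library, those without the third control or the third knockout. Those fits called 1.51% and 4.69% of all genes, and the others at most 0.0906%. The striatal projection, subplate, dentate granule and glial sums given beside Ret were lower in the same knockouts, and their part in the lower Cadps2 and Egr1 levels was not tested. Of the genes induced by BDNF and TrkB, 1 of 19 was called at P0 and 0 of 20 at P14, where Bdnf was lower, with medians of -0.18 and 0.04. Over all genes 0.909% were called at P0 and 1.99% at P14. Egr1 itself was at 92.2, 113 and 91.5 CPM in P14 controls and 125, 138 and 111 CPM in P14 knockouts (0.35, edgeR adjusted p = 0.0928).

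**Figure D5:**
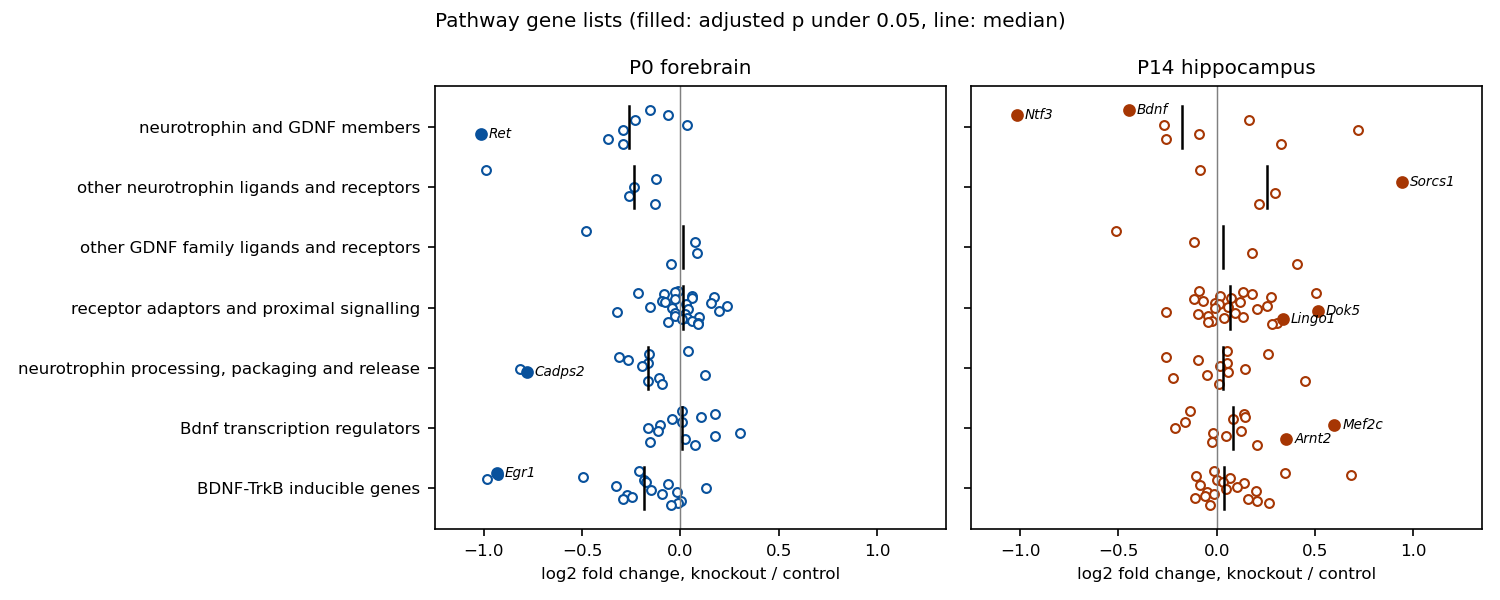
Log2 fold change of knockout over control for every tested gene of the 8 genes and of 6 further pathway lists, at P0 and P14. Filled points have an edgeR adjusted p under 0.05 and black lines mark list medians. The filled points are Ret, Cadps2 and Egr1 at P0, all below 0, and Bdnf and Ntf3 below 0 and Sorcs1, Dok5, Lingo1, Mef2c and Arnt2 above 0 at P14.

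For each of the 8, the genes most alike were sought among 13287 genes after subtracting each context's mean from the log2 CPM, over 12 libraries, so that the values compared share each library's depth and preparation. For Ntf3 they were Btbd3 (Pearson r = 0.945) and Ptcd3 (0.942), and Btbd3 also fell at P14 (log2 fold change -0.53, edgeR adjusted p = 0.00120). For Bdnf they were Thoc6 (0.896) and Efna1 (0.884). Ret was most like A530058N18Rik (0.928). Gfra1 was most like Lrrc10b (0.973) and Mylk (0.959), of which Lrrc10b fell at P14 (-0.52, edgeR adjusted p = 0.00725). Gfra2 was most like Car10 (0.950) and AW551984 (0.949), and Car10 rose at P14 (0.37, edgeR adjusted p = 0.0360). Ntrk2 was closest to Pcdh10 (0.946) and Ehbp1 (0.937), and Ngfr to Atp10a (0.983) and Tgfbrap1 (0.932). Ntrk3 was closest to Frem1 (0.943) and Zbtb20 (0.942), the last a factor of hippocampal pyramidal and granule neurons. The difference between genotypes was left in the values compared. A gene picked as most alike therefore tends to share the genotype change of its partner through the choice itself. These are descriptions of 12 libraries and carry no test.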

How the data were processed

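Total RNA from 12 tissues of individual mice was sequenced as 150 bp paired reads from TruSeq libraries, per the labels' protocols. The deposited values are raw read counts per Ensembl gene, 1 library per file. The file names give STAR's gene counting, GRCm38 and annotation release 102, and STAR 2.7.5a, edgeR 3.12 and mm10 are named per the submitters' processing notes. Trimming and the handling of multiply mapped reads are not given in the sources used here. The unstranded count column was used, and the files hold no row without a gene identifier.

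Symbols, coordinates and exon lengths came from GENCODE vM21 on GRCm38, matched for 55227 of 55487 identifiers. Genes were tested with edgeR 4.0.16 (filterByExpr, TMM, estimateDisp, robust glmQLFit, glmQLFTest), each context on its own 6 libraries and the interaction and the contrast of controls on all 12, with Benjamini-Hochberg adjustment over all genes tested. SEs were taken from fold changes and their F statistics. The fit was tested on simulated data. Replicate pairs differed by more than sampling noise (chi-square per degree of freedom 2.93 to 17.5), so each library counts as 1 sample. Replicate numbers follow accession order and pair no libraries. Values with 3 libraries a group have limited precision, and reads are not independent molecules.

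Named were the 8 genes always, from each pathway list the genes called (at most 4 per context) or else the 2 most abundant, the most alike genes by Pearson r (average log2 CPM 1 or more), and defining markers. The 8 genes and all lists were chosen with earlier results of these data known. Of the listed genes, Pvrl3 and Ctgf matched no symbol. A few genes that the lists or the rule would name are not reported here. Alternatives were RLE size factors, DESeq2 1.42.0, no filter, at least 10 counts in every library, the sum of the strand columns, non-robust fitting, 1 fit on 12 libraries, the library number series and leaving out each library. Added after seeing the data was a contrast of controls on the 6 control libraries. Promoter windows came from RefSeq on GRCm38.p6 and matched 5 of the 8 genes.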

Additional observations from a re-analysis of the deposited data

Results flagged for a closer look

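The genotype effect differed between the P14 hippocampus and the P0 forebrain for 5 genes of the pathway lists, by the interaction term of the edgeR fit to all 12 libraries. For Sorcs1 the P14 minus P0 difference in log2 fold change was 1.16 (adjusted p = 0.00139), from -0.23 at P0 to 0.94 at P14. For Mef2c it was 0.69 (adjusted p = 0.00682), from -0.10 to 0.60. For Cadps2 it was 0.82 (adjusted p = 0.00416), from -0.78 to 0.06, and for Egr1 1.26 (adjusted p = 0.0128), from -0.94 to 0.35. For Sorcs2, another sortilin family receptor, it was 0.54 (adjusted p = 0.0478), from -0.26 to 0.30, where neither change was called on its own. The Sorcs2 call was kept in 3 of 12 fits that left out 1 library, those without the third P0 knockout, the third P14 control or the third P14 knockout (adjusted p up to 0.163 in the others), and in 5 of 6 other settings. Those 3 fits called 3.16%, 4.85% and 1.23% of all genes. The Egr1 call was lost without the second P0 knockout (adjusted p = 0.0546), and the other 3 calls were kept in all 12 fits. Across all genes 1.79% were called in this test. No test of a sample standing apart was made, since all groups hold 3 libraries.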

How the results depend on the processing

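No paired analysis was possible because the labels carry no replicate numbers shared between groups. Of the 8 genes, 1 was called at P0: this became 2 without a filter, 2 in 1 fit on 12 libraries, 2 with a term for the number series, 4 within libraries 1407 to 1410 and 0 to 3 with 1 library left out. Over all genes at P0, 147 calls became 374 with DESeq2, 625 without a filter, 84 on summed strand columns, 50 with non-robust fitting, 284 in 1 fit on 12 libraries, 465 with the series term, 2107 within libraries 1407 to 1410 and 1 to 775 with 1 library left out (775 without knockout 3, 249 without control 3, 1 to 15 otherwise). At P14, 2 of the 8 became 4 without a filter and 0 to 4 with 1 library left out, and 342 calls became 534 with DESeq2, 814 without a filter and 104 to 1808 with 1 library left out (1808 without control 3, 104 to 191 otherwise). For the interaction, 0 of the 8 became 4 with DESeq2, 3 without a filter, 1 with at least 10 counts in every library and 0 to 3 with 1 library left out, and 326 calls became 531, 646 and 125 to 905 with DESeq2, no filter and 1 library left out. The contrast of controls gave 6 or 7 of the 8 in every alternative run. With 1 library left out, P0 Ntrk3 went from 0.03 to as low as -0.069 (0.11 at the highest) and P14 Ret from -0.09 to as high as 0.048 (-0.18 at the lowest); no other gene of the 8 changed sign in any alternative. The cause of these moves was not tested. At P14, depth limits Ntf3 (63 to 151 reads a library) and Ngfr (28 to 88).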
